A study of Mus musculus with 12 samples.

Results

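Iron handling and ferroptosis were described here by 10 genes, chosen by name from 31208 genes listed for mouse brain RNA. They were the ferritin chains Fth1 and Ftl1, the ferritin cargo receptor Ncoa4, the uptake genes Tfrc, Trf and Slc11a2, the iron exporter Slc40a1, and the ferroptosis genes Gpx4, Aifm2 and Acsl4. All 10 were found in the table and all 10 passed the filter on low counts in each comparison. Against sham, Slc40a1 passed it through the sham mice, where it was higher. RNA had been sequenced as long nanopore reads from the brains of 12 C57BL/6 mice, 8 weeks old and, per the methods, male. The 3 groups held 4 mice each: sham mice, mice with cerebral ischemia of 6 h that had been pretreated with vehicle (ischemia + vehicle), and mice with cerebral ischemia of 6 h that had been pretreated with lactate (ischemia + lactate). Ischemia was made by occlusion of the left middle cerebral artery with a filament, and vehicle (sterile saline) or lactate had been injected into a cerebral ventricle on the preceding day. The methods name D-lactate for the sequenced mice, while the labels say only lactate. The labels give no injection for the sham mice, so injection and ischemia cannot be told apart against sham, and no sham mice with lactate were among the samples.

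Iron enters most cells when transferrin (Trf) binds the transferrin receptor (Tfrc), is stored in the ferritin shell made of heavy (Fth1) and light (Ftl1) chains, and leaves through ferroportin (Slc40a1). Iron regulatory proteins bind a small RNA hairpin, the iron-responsive element, when iron is low. Such binding blocks translation where the hairpin lies in the 5′ UTR and protects the mRNA from decay where it lies in the 3′ UTR. Ferroptosis is an iron-dependent death by peroxidation of membrane lipids, to which the brain, rich in polyunsaturated lipids, is exposed after ischemia.

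The hairpins are shown because the genes whose RNA differed between groups are among those that carry them. The UTRs of the 10 genes were searched on the transcript strand in GENCODE transcripts (GRCm38) for an unpaired C, a 5-base stem, the loop CAGTGN and the opposite 5-base stem, and at least 4 of 5 stem pairs were required, G with T included. In all, 8 elements were found in 5 of the 10 genes, 7 of them with all 5 pairs. Each is given 5′ to 3′ over 29 bases, with the 6-base loop in capitals.
Fth1, 5′ UTR, chr19:9982732-9982760, plus strand: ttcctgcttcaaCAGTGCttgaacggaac
Ftl1, 5′ UTR, chr7:45459779-45459807, minus strand: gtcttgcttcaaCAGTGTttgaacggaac
Slc40a1, 5′ UTR, chr1:45925465-45925493, minus strand: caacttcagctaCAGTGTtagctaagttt
Tfrc, 3′ UTR, chr16:32631219-32631247, plus strand: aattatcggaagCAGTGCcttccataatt
Tfrc, 3′ UTR, chr16:32631598-32631626, plus strand: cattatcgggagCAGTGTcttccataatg
Tfrc, 3′ UTR, chr16:32631663-32631691, plus strand: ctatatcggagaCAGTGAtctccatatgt
Tfrc, 3′ UTR, chr16:32631710-32631738, plus strand: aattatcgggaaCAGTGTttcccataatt
Slc11a2, 3′ UTR, chr15:100395153-100395181, minus strand: agccatcagagcCAGTGTgtttctatggt
The element of Slc11a2 had 4 of 5 pairs. An element was held by 4 of 5 coding transcripts searched for Fth1, 1 of 2 for Ftl1, 1 of 3 for Tfrc, 1 of 4 for Slc40a1 and 1 of 6 for Slc11a2, and reads were not divided by transcript here. No element was found in Trf, Gpx4, Acsl4, Ncoa4 or Aifm2. Among the longest transcripts of 21866 protein-coding genes, 138 (0.631%) held an element with all 5 pairs in a UTR and 944 (4.32%) one with at least 4. These matches describe the letters of the transcripts, not protein binding, which was not measured.

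Total counts per mouse ranged from 6815920 to 10677224, and 3 counts, taken as the floor, correspond to 0.281 to 0.440 CPM (reads of a gene relative to all counted reads of that mouse). The reads carry no molecular identifiers, so this floor covers counting error only. Slc40a1 was the shallowest of the 10, with 4 to 26 reads per mouse, and Aifm2 had 10 to 43, while Fth1 had 13184 to 25445. The second vehicle mouse stood apart by Ttr, a choroid plexus transcript, with 1817 CPM against 16.2 CPM or less in the other 11 mice. In bulk tissue, fewer cells of a type and less RNA per cell cannot be told apart.

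Ftl1 was higher and Tfrc and Slc40a1 were lower with ischemia + lactate than in sham mice, while the other 7 genes were not called. By the edgeR quasi-likelihood test at a Benjamini-Hochberg adjusted P under 0.05 over all genes tested, these 3 of the 10 were called, against 12.3% of the 17262 genes tested (8.76% called higher and 3.55% lower). Of these 3, Slc40a1 passed the filter on low counts through the sham mice, so a difference was built into its being tested. The files also hold loci without an Ensembl identifier, and with these left out 7.52% of 13337 genes were called. The same 3 genes were the ones whose groups did not overlap, a state found for 19.1% of all genes, and 4 of the 10 had an unadjusted P under 0.05 (27.1% of all genes). With ischemia + vehicle, 0 of the 10 were called (1.47% of 17019 genes tested), and 1 had an unadjusted P under 0.05 (13.8% of all genes) and groups that did not overlap (9.03%). The edgeR exact test, DESeq2 and limma voom also called 0 of the 10, beside 2.96%, 2.8% and 2.32% of all genes. The share of all genes called with vehicle by the quasi-likelihood test rests on single mice. It was 0.637% to 0.714% without any 1 sham mouse, 0.919% without vehicle mouse 3 and 2.79% without vehicle mouse 1. With lactate it was 7.59% without sham mouse 3. Between both ischemic groups, 0 of the 10 were called (0.00574% of 17419 genes), 1 had an unadjusted P under 0.05 (8.84% of all genes), and 0 had groups that did not overlap (4.81%). The other tools likewise gave 0 of the 10, beside 48 (edgeR exact test), 62 (DESeq2) and 2 (limma voom) of all genes. Being called with lactate and not with vehicle does not show that the treatments differ. Both contrasts with sham use the same sham mice, and both contrasts of lactate use the same lactate mice.

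**Figure D1:**
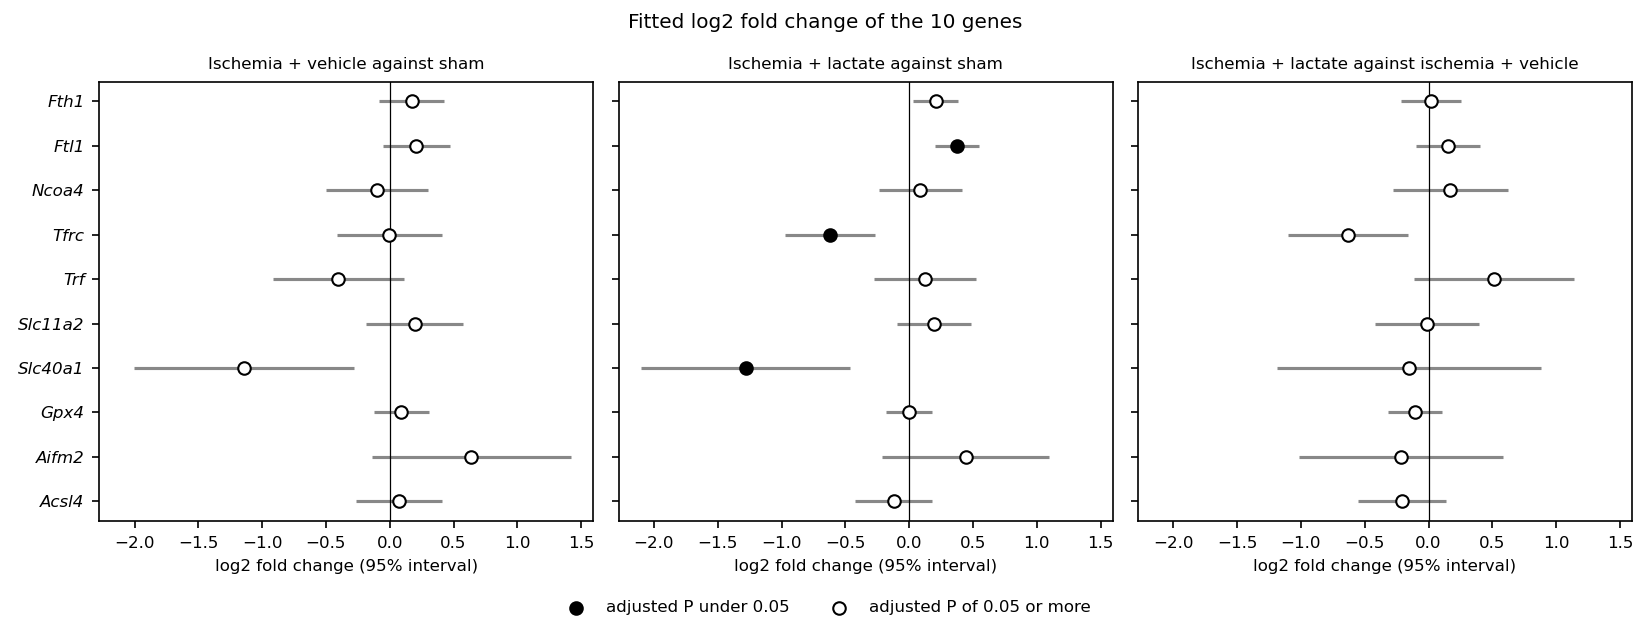
Fitted log2 fold change of the 10 genes in 3 comparisons, with 95% intervals as bars and filled circles for an adjusted P under 0.05 (edgeR quasi-likelihood test). Filled circles appear only in the lactate against sham panel, for Ftl1 on the right of 0 and for Tfrc and Slc40a1 on the left, and the widest intervals are those of Slc40a1 and Aifm2.

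Ftl1 encodes the ferritin light chain, which aids the formation of the iron core (chr7:45457944-45459884, GRCm38, minus strand). Its level was 797, 701, 705 and 752 CPM in the sham mice, 656, 910.3, 915 and 848 CPM with vehicle, and 972, 953, 969 and 856 CPM with lactate. All 4 lactate mice lay above all 4 sham mice. Of the vehicle mice, 1 lay below every sham mouse and 3 above, and all 4 lay below the 3 highest lactate mice. The mean was 739 ± 45.3 CPM in sham mice, 832 ± 121 with vehicle and 937 ± 55.1 with lactate (SD, n = 4). Against sham, Ftl1 was 1.30-fold higher with lactate (log2 fold change 0.38, approximate SE 0.08, 95% interval 0.20 to 0.55, edgeR adjusted P = 0.00957). The fold is below the limit of 1.5 that the study set. With vehicle the log2 fold change was 0.21 (SE 0.12, edgeR adjusted P = 0.484), and between lactate and vehicle it was 0.15 (95% interval -0.09 to 0.40, edgeR adjusted P = 0.724). Without vehicle mouse 1, the value for vehicle against sham was 0.30 (edgeR adjusted P = 0.101).

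A near-identical copy, Ftl1-ps1 (chr13:74399694-74407346), can share reads with Ftl1. Its mean was 114 ± 9.76 CPM in sham mice, 127 ± 14.2 with vehicle and 145 ± 9.21 with lactate (SD, n = 4), with a log2 fold change of 0.38 for lactate against sham (edgeR adjusted P = 0.0213). With the reads of both loci summed, the change of Ftl1 was 0.38 (edgeR adjusted P = 0.00924).

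Fth1 encodes the heavy chain, whose ferroxidase activity oxidises iron for storage (chr19:9980598-9985098, plus strand). It was at 2401, 2132, 2008 and 2038 CPM in sham mice, 2383, 2737, 2365 and 1934 CPM with vehicle, and 2487, 2256, 2604 and 2345 CPM with lactate. The 3 ranges overlapped, since sham mouse 1 lay within the range of the lactate mice. The log2 fold change of lactate against sham was 0.21 (SE 0.08, 95% interval 0.03 to 0.38), with an unadjusted P of 0.0229 and an edgeR adjusted P of 0.114. It was called by limma voom with sample quality weights alone (log2 fold change 0.25, adjusted P = 0.0360). With vehicle the value was 0.17 (SE 0.12, edgeR adjusted P = 0.560).

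Read counts of both chains were set against each other within each mouse, a measure chosen after the values had been seen. There were 33.2, 32.9, 35.1 and 36.9 Ftl1 reads per 100 Fth1 reads in the sham mice, 27.5, 33.3, 38.7 and 43.8 with vehicle, and 39.1, 42.2, 37.2 and 36.5 with lactate. The lowest lactate mouse lay just below the highest sham mouse, and the vehicle mice spread beyond both other groups. The mean rose from 34.5 ± 1.87 in sham to 38.8 ± 2.56 with lactate (SD, n = 4), a difference that did not pass a two-sided exact permutation test (p = 0.0571, adjusted over 3 comparisons 0.171, where 0.0286 is the smallest p that 4 against 4 mice allow). The exact permutation p was 0.743 between vehicle (35.8 ± 7.02) and sham mice and 0.486 between both ischemic groups. These ratios compare mice and do not give the number of each chain per shell.

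Ncoa4 delivers ferritin to lysosomes for iron release (chr14:32159865-32179855, plus strand). It was at 31.1 to 37.8 CPM in sham mice, 22.7 to 38.6 with vehicle and 27.3 to 43.1 with lactate, so the ranges overlapped. Its log2 fold change against sham was -0.10 with vehicle (SE 0.18) and 0.09 with lactate (SE 0.15, 95% interval -0.24 to 0.41, edgeR adjusted P = 0.761).

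Tfrc, the receptor through which transferrin-bound iron is taken up (chr16:32608920-32632794, plus strand), carries the 4 elements in its 3′ UTR shown above. It was at 25.6, 21.5, 20.1 and 24.5 CPM in sham mice, 25.8, 27.5, 18.8 and 17.0 with vehicle, and 12.3, 15.2, 18.5 and 12.5 with lactate. Every lactate mouse lay below every sham mouse, and lactate mouse 3 lay between the lower vehicle mice. The fall against sham was to 0.651 of the sham level (log2 fold change -0.62, SE 0.16, 95% interval -0.97 to -0.27, edgeR adjusted P = 0.0251), from a mean of 22.9 ± 2.56 to 14.6 ± 2.88 CPM (SD, n = 4). With vehicle, the log2 fold change was near 0 (SE 0.19, 95% interval -0.41 to 0.41, edgeR adjusted P = 0.996). Between lactate and vehicle it was -0.63 (SE 0.22, 95% interval -1.10 to -0.16), with an unadjusted P of 0.0126 and an edgeR adjusted P of 0.496. That size passes the limits of the study, a fold change of 1.5 or more with an unadjusted P under 0.05, which 6.23% of all genes passed. The call against sham was lost when sham mouse 1, sham mouse 4, lactate mouse 1 or lactate mouse 4 was left out (edgeR adjusted P from 0.0593 to 0.0647), and in 1 fit of all 12 mice (0.0563).

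Trf, the plasma iron carrier that oligodendrocytes and choroid plexus also make (chr9:103204001-103230444, minus strand), was at 94.3, 81.0, 80.7 and 72.9 CPM in sham mice. It was at 42.4, 87.9, 73.6 and 38.3 CPM with vehicle and at 69.1, 68.5, 79.5 and 133 CPM with lactate. Vehicle mice 1 and 4 lay below all other mice and lactate mouse 4 above all others, so both ischemic groups were spread far more widely than sham (SD 24.1 and 30.6 against 8.88 CPM). Against sham, the log2 fold change was -0.41 with vehicle (SE 0.24, edgeR adjusted P = 0.484) and 0.12 with lactate (SE 0.19, edgeR adjusted P = 0.727), and it was 0.51 for lactate against vehicle (SE 0.29, edgeR adjusted P = 0.629). Without lactate mouse 4, the value against sham turned to -0.15. The summed level of 8 oligodendrocyte markers was 9653, 10548, 9127 and 5614 CPM in the vehicle mice, lowest in mouse 4. The sum of 8 choroid plexus markers was 1847 CPM in vehicle mouse 2, the vehicle mouse with the highest Trf, against 6.16 to 15.5 in the other vehicle mice, 2.04 to 5.27 in sham mice and 10.1 to 19.6 with lactate. The part of either cell type in the spread of Trf was not tested. Gm20425, annotated over Trf on the same strand, had 3753 reads over the 12 mice against 7442 for Trf, so the division of reads between them is uncertain.

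Slc11a2, the divalent metal transporter that moves iron out of endosomes (chr15:100387898-100425072, minus strand), was at 48.7 to 58.0 CPM in sham mice, 41.6 to 71.8 with vehicle and 50.1 to 67.2 with lactate. The ranges overlapped in each comparison. Its log2 fold change against sham was 0.19 with vehicle (SE 0.18, edgeR adjusted P = 0.684) and 0.20 with lactate (SE 0.13, 95% interval -0.09 to 0.49, edgeR adjusted P = 0.379).

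Slc40a1 encodes ferroportin, the exporter of cellular iron (chr1:45908068-45926523, minus strand). It was at 1.98, 1.89, 3.40 and 3.21 CPM in sham mice, 0.656, 1.81, 0.747 and 1.47 with vehicle, and 1.22, 0.958, 1.58 and 0.464 with lactate. These values rest on 15, 17, 25 and 26 reads, on 7, 14, 6 and 10 reads, and on 9, 8, 12 and 4 reads. All 8 ischemic mice lay below all 4 sham mice, and the ischemic groups overlapped. Vehicle mice 1 and 3 and lactate mice 2 and 4 were under 1 CPM. Against sham, Slc40a1 thus passed the filter on low counts through the sham mice, so a difference was built into its being tested. With lactate the level was 0.411 of sham (log2 fold change -1.28, SE 0.38, 95% interval -2.10 to -0.46, edgeR adjusted P = 0.0430). With vehicle it was 0.452 of sham (log2 fold change -1.14, SE 0.40, 95% interval -2.01 to -0.28), with an unadjusted P of 0.0133 and an edgeR adjusted P of 0.225. A group of vehicle mice wholly below sham was found for 4.89% of all genes, and 9.52% passed the limits of the study, as Slc40a1 did. Between lactate and vehicle the log2 fold change was -0.15 (95% interval -1.19 to 0.88, edgeR adjusted P = 0.948), so neither equal levels nor a large difference can be read from it.

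The call of Slc40a1 against sham rested on few reads. Leaving out 1 mouse moved the adjusted P to 0.0519 (sham mouse 1), 0.120 (sham mouse 3), 0.110 (sham mouse 4), 0.0693 (lactate mouse 1), 0.0910 (lactate mouse 2) or 0.0946 (lactate mouse 4) in edgeR, while it stayed under 0.05 without sham mouse 2 or lactate mouse 3. It was also lost in 1 fit of all 12 mice (0.0655) and in a test of Ensembl genes alone (0.0711). The fold change stayed between -1.54 and -1.03 on the log2 scale over these left-out fits.

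**Figure D2:**
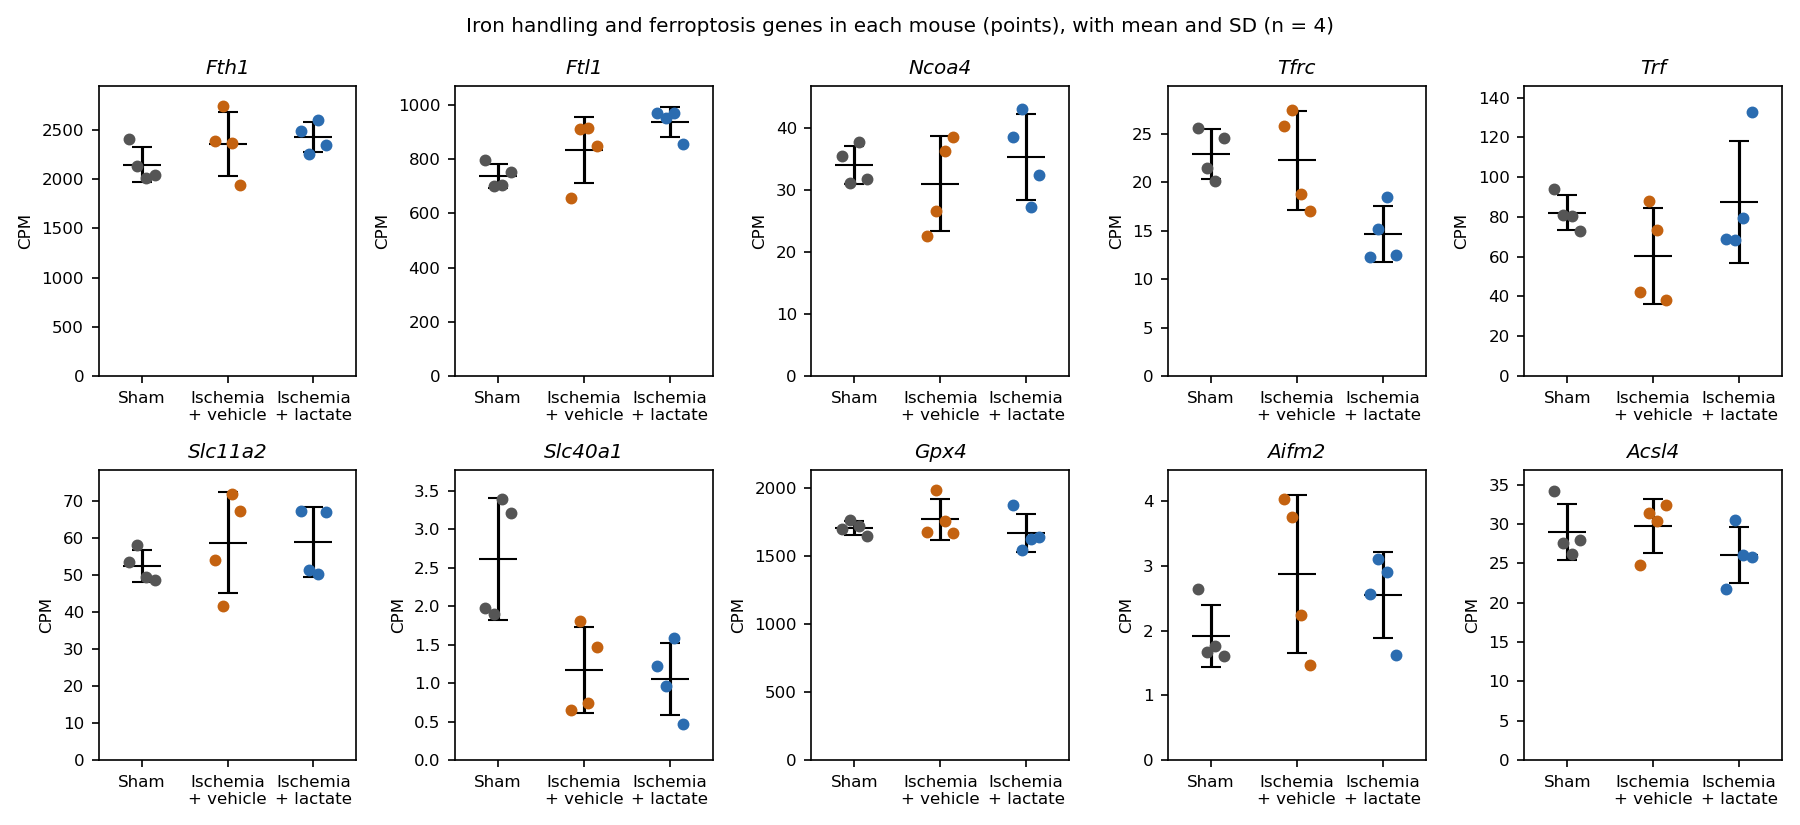
CPM of each of the 10 genes in each mouse (points), with the mean and SD of each group of 4 mice as black bars; every axis starts at 0. The lactate points of Ftl1 lie above all sham points, those of Tfrc and Slc40a1 below them, and the points of Gpx4 stay between 1541 and 1987 CPM in all groups.

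Gpx4, the selenoenzyme that reduces lipid peroxides and the central defence against ferroptosis (chr10:80047166-80056439, plus strand), differed little. It was at 1695, 1761, 1719.9 and 1643 CPM in sham mice, 1672, 1987, 1756 and 1666 with vehicle, and 1869.7, 1541, 1624 and 1635 with lactate. The groups overlapped, and the sham mice varied least of all (coefficient of variation 2.90%, against 8.49% with vehicle and 8.47% with lactate). The log2 fold change was 0.09 with vehicle (95% interval -0.13 to 0.31, edgeR adjusted P = 0.753) and near 0 with lactate (95% interval -0.18 to 0.18, edgeR adjusted P = 0.993) against sham. It was -0.11 between lactate and vehicle (95% interval -0.32 to 0.11, edgeR adjusted P = 0.779).

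Aifm2 encodes FSP1, which reduces coenzyme Q to trap lipid radicals without GPX4 (chr10:61715263-61739260, plus strand). It was at 2.64, 1.67, 1.77 and 1.60 CPM in sham mice, 4.03, 3.76, 2.24 and 1.47 with vehicle, and 2.57, 3.11, 2.90 and 1.62 with lactate. The lowest mouse of the 12 and the highest were both vehicle mice. Its log2 fold change against sham was 0.64 with vehicle (SE 0.36, 95% interval -0.14 to 1.42, edgeR adjusted P = 0.465) and 0.44 with lactate (SE 0.30, 95% interval -0.21 to 1.09, edgeR adjusted P = 0.380). H2afy2 overlaps Aifm2 on the opposite strand and had 464 reads over the 12 mice against 242 for Aifm2, and whether the counting used strand is not given in the sources used here.

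Acsl4, the acyl-CoA synthetase that loads polyunsaturated fatty acids into the membrane lipids that peroxidise (chrX:142317993-142390535, minus strand), was at 26.2 to 34.2 CPM in sham mice, 24.7 to 32.4 with vehicle and 21.8 to 30.5 with lactate. Its log2 fold change against sham was 0.07 with vehicle (SE 0.15, edgeR adjusted P = 0.886) and -0.12 with lactate (SE 0.14, 95% interval -0.42 to 0.18, edgeR adjusted P = 0.633). The 3 ferroptosis genes thus had overlapping groups in all comparisons.

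The 3 genes called for lactate against sham are among the 5 with an iron-responsive element, beside 12.3% called of all genes. Of these 3, Slc40a1 passed the filter on low counts through the sham mice. The elements were printed with these calls known, so the count is a description. The genes with the element in the 5′ UTR did not share a direction, since Ftl1 was higher and Slc40a1 lower. An element in the 5′ UTR acts on translation, which RNA counts do not measure, so nothing on its action can be read from these directions. The median log2 fold change of the 10 genes was 0.08 with vehicle and 0.10 with lactate against sham, and -0.06 between both ischemic groups, beside 0.00, -0.03 and -0.03 for all genes tested.

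**Figure D3:**
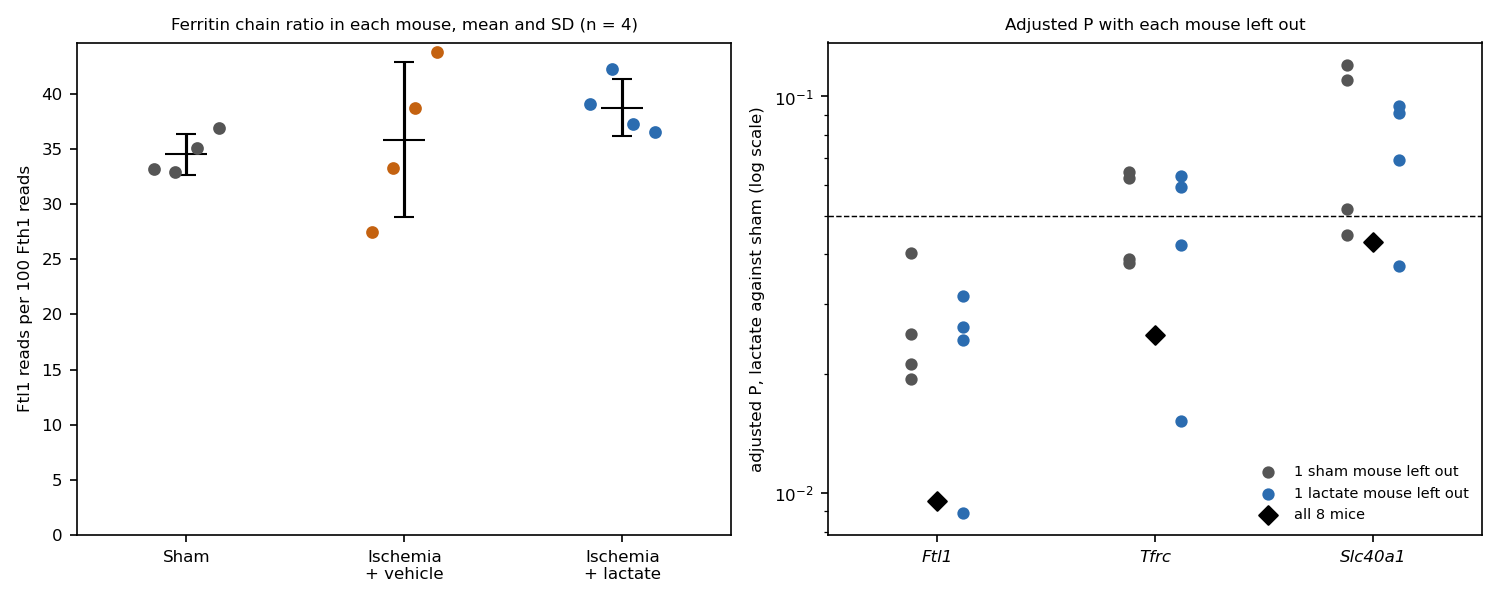
Left, Ftl1 reads per 100 Fth1 reads in each mouse with the mean and SD of 4 mice. Right, the edgeR adjusted P of lactate against sham for Ftl1, Tfrc and Slc40a1 with all 8 mice (diamonds) and with each sham or lactate mouse left out (points) on a log axis, with a dashed line at 0.05: all Ftl1 points lie below the line, and 4 of 8 for Tfrc and 6 of 8 for Slc40a1 lie above it.

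Of 50 other iron genes (uptake, haem, hepcidin control, iron-sulphur clusters), 37 were tested for vehicle against sham, of which 3 were called higher and 0 lower, with 5 higher and 1 lower at an unadjusted P under 0.05. These are 8.11% called, against 1.47% of all genes (1.32% of those with an Ensembl identifier), of which 13.8% had an unadjusted P under 0.05. For lactate against sham, 38 were tested, of which 6 were called higher and 0 lower, with 8 higher and 3 lower at an unadjusted P under 0.05. These are 15.8% called, against 12.3% of all genes (7.52% of those with an Ensembl identifier, which every tested gene of the list has), and 27.1% of all genes had an unadjusted P under 0.05. The called genes include Lcn2 with both treatments and Tmprss6 with lactate, each at 1 CPM or more in 0 sham mice. These genes passed the filter on low counts through the ischemic mice, so a difference was built into their being tested. Calls over all genes were also mostly higher (87.6% of them with vehicle and 71.2% with lactate), so the direction is not particular to the list. The median log2 fold change of the list stayed near 0, at 0.04 and -0.02.

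Hmox1, haem oxygenase, which frees iron from haem, was at 1.85, 1.45, 0.951 and 1.23 CPM in sham mice, 4.68, 6.22, 9.83 and 8.51 with vehicle, and 12.4, 15.1, 12.1 and 16.2 with lactate. The 3 groups did not overlap with each other. It rose against sham by a log2 fold change of 2.43 with vehicle (SE 0.32, edgeR adjusted P = 0.00147) and 3.36 with lactate (SE 0.24, edgeR adjusted P = 1.17e-06). The difference between lactate and vehicle was 0.93 (SE 0.24), with an unadjusted P of 0.00245 and an edgeR adjusted P of 0.460.

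Cp, ceruloplasmin, the ferroxidase that works with ferroportin in iron export, rose from 5.60 ± 1.80 CPM in sham mice to 14.8 ± 1.18 with vehicle and 17.4 ± 3.26 with lactate (SD, n = 4). Its log2 fold change was 1.42 (edgeR adjusted P = 0.0101) and 1.65 (edgeR adjusted P = 0.000740). Cp was thus higher while Slc40a1, its partner, was lower in the same lactate mice.

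Lcn2, lipocalin, which binds iron-loaded siderophores, had 2 reads over all 4 sham mice, 798 over the vehicle mice and 1401 over the lactate mice. The ratio of its read rates to sham was 384 with vehicle (exact 95% counting interval 106 to 3179) and 702 with lactate (194 to 5803), intervals that cover counting error only. All 4 lactate mice (41.3 to 45.8 CPM) lay above all 4 vehicle mice (21.5 to 27.3 CPM). The log2 fold change between them was 0.85 (SE 0.14, unadjusted P = 7.35e-05) and was not called by the edgeR quasi-likelihood test (adjusted P = 0.265), but the edgeR exact test and DESeq2 called it.

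With lactate against sham, Tmprss6, a protease that lowers hepcidin, and Slc39a14, a transporter of iron not bound to transferrin, were also called higher. Tmprss6 was at 0 to 0.557 CPM in sham mice and 1.68 to 3.69 with lactate (log2 fold change 3.55, edgeR adjusted P = 0.00243). Slc39a14 was at 1.45 to 2.34 CPM in sham mice and 2.57 to 6.20 with lactate (log2 fold change 1.35, edgeR adjusted P = 0.0222). Tmprss6 had 0 to 5 reads per sham mouse and passed the filter on low counts only through the lactate mice, so a difference was built into its being tested. Tmprss6 did not pass the filter for vehicle against sham. Lcn2 likewise passed the filter against sham through the ischemic mice alone. The call of Slc39a14 was lost without sham mouse 1, 2 or 3 or lactate mouse 2 or 3 (edgeR adjusted P up to 0.0678).

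Of 62 other ferroptosis genes, 55 were tested for vehicle against sham, of which 3 (5.45%, beside 1.47% of all genes) were called higher and 0 lower, with 9 higher and 1 lower at an unadjusted P under 0.05, as had 13.8% of all genes. For lactate against sham, 54 were tested, of which 8 (14.8%, beside 12.3% of all genes and 7.52% of those with an Ensembl identifier) were called higher and 0 lower, with 16 higher and 5 lower at an unadjusted P under 0.05, as had 27.1% of all genes. The median log2 fold change was 0.18 and 0.10. The called genes include heat-shock, unfolded-protein and inflammatory genes, which are known to respond to other stresses as well.

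Hspb1, a small heat-shock protein, had the largest fitted changes of this list with both treatments. It was at 1.60 to 3.79 CPM in sham mice, 8.52, 43.4, 52.8 and 8.51 with vehicle and 17.8 to 44.2 with lactate (log2 fold change 3.44, edgeR adjusted P = 0.0131, and 3.33, edgeR adjusted P = 5.94e-05). Hspa5, the endoplasmic reticulum chaperone BiP, rose from 127 ± 30.4 CPM to 263 ± 65.6 with vehicle and 327 ± 57.0 with lactate (SD, n = 4). Its log2 fold change was 1.09 (edgeR adjusted P = 0.0227) and 1.40 (edgeR adjusted P = 0.000190). With vehicle, Hspb1 lost its call without sham mouse 1, 3 or 4 (adjusted P up to 0.0601) and Hspa5 without sham mouse 1, 2 or 3 or vehicle mouse 2 or 3 (up to 0.0913).

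Ptgs2, cyclooxygenase, often read as a sign of ferroptosis but also an inflammatory and activity-induced gene, was at 2.64 to 4.32 CPM in sham mice. It was at 5.53, 39.9, 70.1 and 5.58 CPM with vehicle and at 9.87, 26.7, 5.93 and 7.88 CPM with lactate. All ischemic mice lay above all sham mice, and vehicle mice 2 and 3 stood far above the rest of their group. The same 2 vehicle mice were highest of their group in Hspb1 and in the sum of neutrophil markers (57.8 and 76.3 against 16.1 and 12.6 CPM), whose part in the level of Ptgs2 was not tested. The log2 fold change was 3.19 with vehicle (SE 0.72, edgeR adjusted P = 0.0491) and 1.94 with lactate (SE 0.42, edgeR adjusted P = 0.0105). Without vehicle mouse 3 the value with vehicle was 2.37, and without lactate mouse 2 the value with lactate was 1.26. The call with vehicle was lost without any 1 sham mouse and without vehicle mouse 2 or 3 (adjusted P up to 0.159), and with limma voom, filterByExpr, library totals, Ensembl genes alone or the mouse number as a block (0.0508 to 0.0868). The call with lactate was lost in 1 fit of all 12 mice (0.117).

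With lactate against sham, Cyb5r1, an oxidoreductase that feeds lipid peroxidation, was called higher (log2 fold change 0.99, edgeR adjusted P = 0.0248), as was Sat1, the polyamine acetyltransferase (0.91, edgeR adjusted P = 0.00144). The call of Cyb5r1 was lost without sham mouse 2 or 3 or lactate mouse 2 or 3 (edgeR adjusted P up to 0.0721). Sat1 with vehicle had a log2 fold change of 1.13 with an edgeR adjusted P of 0.0678, and was called there by the edgeR exact test, DESeq2, limma voom, the fit of all 12 mice and without a filter (adjusted P from 0.00537 to 0.0304). Between lactate and vehicle, 0 of 93 genes of both lists were called by the edgeR quasi-likelihood test, as were 0.00574% of all genes, and 4 higher and 2 lower had an unadjusted P under 0.05, beside 8.84% of all genes. The edgeR exact test and DESeq2 each called 1 of them there, Lcn2, and limma voom 0, beside 48, 62 and 2 of 17419 genes.

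**Figure D4:**
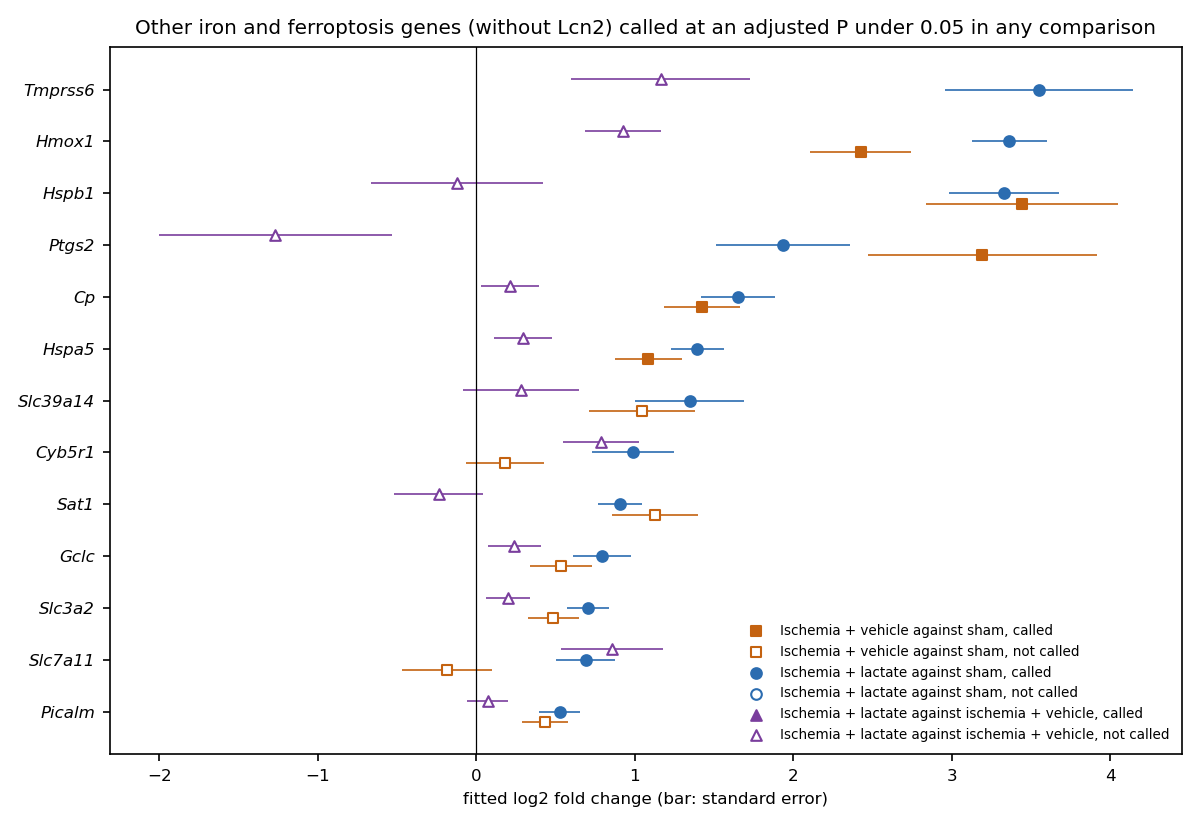
Fitted log2 fold change (points) and SE (bars) of the 13 other iron and ferroptosis genes called in any comparison, apart from Lcn2, which had 2 reads in sham mice. Filled symbols have an edgeR adjusted P under 0.05; all filled symbols lie to the right of 0, none belongs to lactate against vehicle, and Tmprss6 was not tested for vehicle against sham.

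Markers of cells that handle iron moved in some lists. Of all genes, 12.3% were called for lactate against sham (8.76% higher, 3.55% lower) and 1.47% for vehicle against sham. The summed level of 5 red blood cell genes was 560 to 633 CPM in sham mice, 333 to 500.4 with vehicle and 375 to 499 with lactate, below sham in all 8 ischemic mice. In this list 4 of 5 genes were called lower for lactate against sham (Hbb-bt with a log2 fold change of -0.61, Hba-a2 of -0.45 and Hba-a1 of -0.43 among them) and 0 for vehicle, where 4 were lower at an unadjusted P under 0.05 by edgeR. Hba-a1 and Hba-a2 had near-equal counts in each mouse (1477 and 1556 in sham mouse 1, for example), so they may not be separate calls. Red blood cell precursors use Tfrc heavily, and Alas2, their enzyme of haem synthesis, was at 1.22 to 1.98 CPM in sham mice, 0.562 to 1.99 with vehicle and 0.406 to 1.20 with lactate. Every lactate mouse lay below every sham mouse for Alas2, which was at 1 CPM or more in 4 sham mice and 1 lactate mouse. It thus passed the filter on low counts through the sham mice, so its difference is a description, and it was not called (edgeR adjusted P = 0.133). The part of red blood cells in the level of Tfrc was not tested.

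Brain endothelium, which also carries the transferrin receptor, had summed marker levels of 213 to 222 CPM in sham mice, 174 to 240.1 with vehicle and 205 to 249.8 with lactate. Of its 8 markers, 2 were called lower with lactate (Slco1a4 with a log2 fold change of -1.70 and Itm2a of -1.21) and 1 higher (Ly6c1 of 0.86), while 0 were called with vehicle. Macrophages and microglia express ferroportin, and their 8 markers summed to 270.2 to 312 CPM in sham mice, 198 to 275 with vehicle and 325 to 347 with lactate. With lactate, C1qa was called higher (1.40) and P2ry12 lower (-1.10), and with vehicle P2ry12 (-1.01) and Cx3cr1 (-1.21) were called lower. The higher sum with lactate came from C1qa, which was at 29.7 to 54.6 CPM in sham mice and 94.3 to 103 with lactate. The other 7 markers summed to 236 to 257 CPM in sham mice, 148 to 231 with vehicle and 225 to 249 with lactate. The part of these cells in the level of Slc40a1 was not tested.

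Oligodendrocytes hold much of the ferritin of the brain, and their 8 markers summed to 7118 to 11363 CPM in sham mice, 5614 to 10548 with vehicle and 8932 to 9982 with lactate. With lactate, Mog (-0.60) and Cnp (-0.53) were called lower and 0 were called higher, while 4 of the 8 had a log2 fold change above 0, up to 0.38 for Ermn (unadjusted P = 0.0430, edgeR adjusted P = 0.169). Neutrophil markers summed to 3.23 to 7.91 CPM in sham mice, 16.1, 57.8, 76.3 and 12.6 in vehicle mice 1 to 4 and 21.1 to 44.3 with lactate. Against sham, S100a8 and S100a9 were called higher with both treatments and Retnlg with lactate, the only contrast with sham in which Retnlg was tested. These 3 genes reached 1 CPM in only 2, 1 and 0 sham mice, so they passed the filter on low counts through the ischemic mice, and a difference was built into their being tested. The 4 markers other than S100a8 and S100a9 markers summed to 2.79 to 5.84 CPM in sham mice, 4.69 to 11.4 with vehicle and 6.03 to 8.18 with lactate, and of these Csf3r (-0.97 with vehicle, -0.06 with lactate) and Cxcr2 (0.38 and -0.28) were not called. Of 7 astrocyte markers, Gjb6 (0.91) was called higher with lactate, and of 8 neuron markers 0 were called in either comparison, with 0 at an unadjusted P under 0.05 by edgeR. The neuron markers summed to 3963 to 4132 CPM in sham mice, 5151, 3589, 3371 and 3290 in the vehicle mice and 3532 to 3954 with lactate, so every lactate mouse lay below every sham mouse and vehicle mouse 1 above all other mice. The sum leans on its most abundant marker, Syt1, at 1528 to 1937 CPM in sham mice and 1273 to 1778 with lactate, ranges that overlapped. For lactate against sham, 5 of the 8 markers had a log2 fold change above 0, with a median of 0.07. Ttr, the only choroid plexus marker tested, was at 1.48 ± 0.961 CPM in sham mice and 13.9 ± 4.06 with lactate (SD, n = 4). It was called, but only 2 sham mice reached 1 CPM, so it too passed the filter through the lactate mice. The other 7 were too low to test. Without the second vehicle mouse, which had the high Ttr, 0 of the 10 genes were called for vehicle against sham, as with it.

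Over all 12 mice, the genes whose log2(CPM + 1) values were most like those of Ftl1 among 13528 genes were its copy Ftl1-ps1 (Pearson r = 0.98), the chaperonin subunit Cct4 (0.92) and the small heat-shock gene Cryab (0.92). For Tfrc they were Rnf213 (0.95), Zfand5 (0.90) and Rccd1 (0.87), and for Slc40a1 they were Dhx36 (0.93), Etfrf1 (0.91) and Frmd3 (0.91). These are descriptions over mice that share group and library depth, picked as the highest of many.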

How the data were processed

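Brain RNA of 12 mice in 3 groups of 4 was analysed, with groups taken from the sample labels. The authors sequenced PCR-amplified full-length cDNA on nanopores, kept reads passing limits on quality and length, removed ribosomal RNA, used minimap2 for mapping, pinfish for polishing and gffcompare for the match to annotated transcripts. The submitters' processing notes name GRCm38 and DESeq 1.10.1. How reads were counted per gene, and whether by strand, is not given in the sources used here. The authors deposited unnormalized count values per gene. The deposited CPM values are the authors' counts scaled to the total of each mouse. Columns of the authors' own comparisons (P values and fold changes) were not used.

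After 4 lines without a gene were left out, 31208 genes remained, with 0 per-sample columns left out. Total counts were 6815920 to 10677224 per mouse. Each pair of groups was fitted alone with edgeR 4.0.16 in R 4.3.3 (TMM, quasi-likelihood test, a minimum of 1 CPM in 4 or more of 8 mice), adjusted by Benjamini-Hochberg across the tested genes, and called at an adjusted P under 0.05. The SE is the fold change over the root of the F statistic. Alternatives were the edgeR exact test, DESeq2 1.42.0, limma voom 3.58.1 with sample quality weights, other scaling and filters, 1 fit of all mice, the mouse number as a block, only Ensembl genes, and leaving out each mouse; sums over overlapping loci and the ferritin ratio were added after seeing the data. The tests were tested on simulated data. Python 3.11.15, pandas 2.3.3, numpy 2.4.6, scipy 1.17.1 and matplotlib 3.10.9 were used.

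The 10 genes, the lists of 50 and 62 other genes and the marker lists were chosen with earlier results of these data known. All 10 genes are named. Of the other lists, the 5 called genes with the largest fitted fold change per comparison and direction are named, of the marker lists up to 3 called genes, and for each of the 10 genes called in any comparison the 3 most alike genes. Nothing says more than that samples are separate mice, so P values measure the spread between these mice.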

Additional observations from a re-analysis of the deposited data

Results flagged for a closer look

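In 30 sets of 4 mice (each of the 10 genes in each group), a gap between the farthest mouse and its nearest neighbour that took up more of the range of the set than the 95% critical value of Dixon's test was found in 2 sets, where chance gives about 1 in 20. For Ftl1 with lactate, the lowest mouse (856 CPM) stood apart from the other 3 (953 to 972 CPM) by 0.834 of the range, and it still lay above every sham mouse. For Aifm2 in sham mice, the highest mouse (2.64 CPM) stood apart from the other 3 (1.60 to 1.77 CPM) by 0.843 of the range, with 20 reads against 13 to 15.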

How the results depend on the processing

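In 1 fit of all 12 mice, 1 of the 10 genes was called for lactate against sham in place of 3, and leaving out each mouse gave 1 to 3. The share of all genes called was 8.54% in that fit in place of 12.3%, and 7.59% to 12.6% with 1 mouse left out. By the limits of the study, 1 of the 10 genes in place of 0 was called with vehicle against sham, and 1 in place of 0 between both ischemic groups. Of all genes, 9.52% and 6.23% passed these limits in the same comparisons. Of the other iron and ferroptosis genes, 10 in place of 6 were called for vehicle against sham by those limits, and 3 to 7 with 1 mouse left out (3 without sham mouse 1 or sham mouse 3). For lactate against vehicle, 6 in place of 0 were called by those limits and 1 by the edgeR exact test and by DESeq2, which called 48 and 62 of 17419 genes. Values near 0 changed sign. Tfrc for vehicle against sham was 0.0043 with DESeq2, 0.0035 with DESeq2 size factors, 0.011 in 1 fit of all mice, 0.020 with Ensembl genes alone and -0.12 to 0.11 with 1 mouse left out. For lactate against sham, Gpx4 was 0.0026 with DESeq2 or its size factors, 0.0056 with filterByExpr, 0.042 with Ensembl genes alone and -0.071 to 0.032 with 1 mouse left out, and Ncoa4 was -0.026 with limma voom and -0.027 to 0.19 with 1 mouse left out. For lactate against vehicle, Fth1 was -0.0030 without a filter and Slc11a2 was 0.0064 with library totals, 0.0029 with the block and 0.024 with Ensembl genes alone. With 1 mouse left out, the ranges there were -0.066 to 0.099 for Fth1, -0.15 to 0.088 for Slc11a2, -0.41 to 0.14 for Slc40a1 and -0.42 to 0.0096 for Aifm2. Those ranges were -0.215 to 0.020 for Ncoa4 in vehicle against sham and -0.15 to 0.22 for Trf in lactate against sham. The ferritin ratio of vehicle against sham, a difference of 1.31, ranged from -1.37 (without vehicle mouse 4) to 4.07 (without vehicle mouse 1). The causes were not tested. Ftl1 kept its call for lactate against sham in all 8 fits with a mouse left out and in all 11 other alternatives. It does not pass the limits of the study, which 2 of the 10 genes and 17.5% of all genes pass there. DESeq2 gave no adjusted P for Slc40a1 in lactate against vehicle. Mouse numbers are shared between groups, but same-numbered mice correlated at -0.17 to 0.18 and over 0.1 in at most 2 of 4 pairs, so they were not taken as pairs. With the number as a block, all 17 calls for lactate against sham among the 10 genes and the other iron and ferroptosis genes remained, of 19 in all, as did 5 of 6 for vehicle against sham, and the log2 fold change of Tfrc for lactate against sham was -0.63. Slc40a1 and Aifm2, with as few as 4 and 10 reads in a mouse, are limited by depth.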

Other observations

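Slc7a11, Slc3a2, Gclc and Picalm were also called higher for lactate against sham by edgeR. They fall outside the naming rule and were picked with their values already known. Slc7a11, the cystine carrier, was at 22.3, 18.3, 22.5 and 21.8 CPM in sham mice, 8.05, 21.9, 16.8 and 26.7 with vehicle, and 23.0, 43.5, 39.6 and 27.9 with lactate. All lactate mice lay above all sham mice, and the vehicle mice lay on both sides of sham. The log2 fold change against sham was 0.69 with lactate (SE 0.19, edgeR adjusted P = 0.0285) and -0.18 with vehicle (SE 0.28, edgeR adjusted P = 0.837), and between lactate and vehicle it was 0.86 (SE 0.32, edgeR adjusted P = 0.519). The call against sham was lost in 1 fit of all 12 mice, and without any 1 sham mouse or lactate mouse 2 or 3 (edgeR adjusted P up to 0.0856).

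Slc3a2, its partner chain, rose from 65.0 ± 10.3 CPM in sham mice to 103.8 ± 10.4 with lactate (SD, n = 4; log2 fold change 0.70, edgeR adjusted P = 0.00480), and was at 89.0 ± 13.3 with vehicle (0.49, edgeR adjusted P = 0.195). Gclc, the catalytic chain of the first step of glutathione synthesis, rose from 13.3 ± 3.03 to 22.4 ± 3.43 CPM with lactate (0.79, edgeR adjusted P = 0.0144), and was at 18.7 ± 1.18 with vehicle (0.53, edgeR adjusted P = 0.249). Its regulatory chain Gclm (0.28, edgeR adjusted P = 0.555) and the next enzyme Gss (0.04, edgeR adjusted P = 0.943) were not called with lactate. Picalm, which takes part in uptake of the transferrin receptor by clathrin, rose from 31.4 ± 4.86 to 44.1 ± 3.40 CPM with lactate (0.53, edgeR adjusted P = 0.0175), a call lost without sham mouse 4 or lactate mouse 3 (up to 0.0584).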
